A study of Mus musculus with 2 samples.

Results

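Type 1 conventional dendritic cells (cDC1) were examined among CD45+ leukocytes that had entered subcutaneous B16F10 tumours, a transplantable mouse melanoma. The cells were chosen by their UMI counts, a UMI being 1 tagged transcript molecule. Of the 16033 deposited barcodes, 14624 had at least 200 genes and at most 15% mitochondrial UMIs and were kept. A kept barcode was called a cDC1 when it held at least 2 UMIs of Xcr1+Clec9a and at least 3 of Wdfy4+Naaa+Irf8+Cadm1. It was left out when it held over 2 UMIs of Fscn1+Ccr7+Ccl22 (mature dendritic cells), over 1 of Cd209a+Siglech, over 2 of C1qa+C1qb+C1qc, over 2 of Mki67+Top2a+Birc5 (dividing cells) or any of Cd3d+Cd3e+Cd79a+Ncr1 (lymphocytes). This left 316 cells, 98 of the 8936 kept cells of the WT library and 218 of the 5688 kept cells of the KO library.

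Both libraries came from tumours taken 10 days after injection, and each pooled 3 mice. The WT library came from Kcnj2f/f mice, which carry floxed alleles of the inwardly rectifying potassium channel gene Kcnj2 without Cre, and the KO library from Lyz2-Cre-Kcnj2f/f mice. The labels give no other background strain, sex or age. Lyz2-Cre is driven by the lysozyme 2 promoter, which is most active in monocytes, macrophages and neutrophils and is known to act in only part of the dendritic cells, so the labels do not show whether the cDC1 described here had lost Kcnj2. With 1 library per genotype there was no replicate of either genotype, and no test between them was possible. Intervals given below are 95% intervals of the counting error of these libraries only, exact Poisson for a level and exact binomial (Clopper-Pearson) for a share.

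cDC1 are the dendritic cells that take up dying cells and present their antigens to CD8 T cells on MHC class I, a process called cross-presentation. They depend on the transcription factors IRF8 and BATF3, carry the chemokine receptor XCR1 and the dead-cell receptor CLEC9A, and sense double-stranded RNA through TLR3. In tumours they are known as a source of CXCL9 and of interleukin 12, and they leave for the draining lymph node after a maturation program led by CCR7.

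Among the genes that set cDC1 apart from the 2 other dendritic cell classes (below), upstream sequences are shown for those that held a searched motif. The sequences were thus chosen by their match. The other genes searched, Tlr3, Gcsam and Cxcr3 among them, held none and are not shown. Each is the 250 bases before a RefSeq gene start, 5′ to 3′ on the gene's strand, in build GRCm38.p6, with the searched motif in capitals. The capitals mark TGANTCA, the site bound by AP-1 factors such as BATF3 with JUN, in Plet1 (chr9:50494275-50494524, + strand) and P2ry14 (chr3:59153493-59153742, - strand). They mark GAAANNGAAA, the interferon-stimulated response element bound by IRF factors, in Gpr141b (chr13:19732952-19733201, - strand).
Plet1: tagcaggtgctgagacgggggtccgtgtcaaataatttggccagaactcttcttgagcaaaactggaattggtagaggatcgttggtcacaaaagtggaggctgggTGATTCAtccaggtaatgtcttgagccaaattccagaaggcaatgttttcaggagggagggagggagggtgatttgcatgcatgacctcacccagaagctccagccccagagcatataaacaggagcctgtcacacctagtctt
P2ry14: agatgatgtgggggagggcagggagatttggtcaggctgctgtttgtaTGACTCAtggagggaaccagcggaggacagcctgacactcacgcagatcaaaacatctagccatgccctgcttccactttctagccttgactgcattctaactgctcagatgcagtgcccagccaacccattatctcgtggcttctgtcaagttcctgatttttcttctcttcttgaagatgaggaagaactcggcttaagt
Gpr141b: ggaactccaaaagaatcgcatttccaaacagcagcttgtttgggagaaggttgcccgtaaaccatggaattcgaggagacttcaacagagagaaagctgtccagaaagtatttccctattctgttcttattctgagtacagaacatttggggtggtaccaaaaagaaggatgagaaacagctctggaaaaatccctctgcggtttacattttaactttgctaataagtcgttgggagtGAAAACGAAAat
Of the 15 genes, 11 had 1 or more of such windows, 15 windows in all. TGANTCA was found on either strand in 3 windows of 2 genes, Plet1 and P2ry14, and in 6.75% of the 32851 windows of all genes. GAAANNGAAA was found in 1 window, that of Gpr141b, and in 2.98% of all windows. The composite element GGAANNGAAA was found in 0 of the 15 windows and in 2.30% of all windows. A match is a description of the letters and was not tested as a binding site.

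The cells held the markers of the type. Of the genes that the choice of cells used, Xcr1 (chromosome 9, 123852315 to 123862029, - strand, GRCm38) stood at 322 counts per 1000000 UMIs (CPM) in cells of the WT library and at 406 CPM in those of the KO library. Clec9a (chromosome 6, 129408862 to 129424763, + strand) stood at 285 and 280 CPM. Wdfy4, needed for cross-presentation of cell-bound antigen, stood at 513 and 546 CPM. Naaa, a lysosomal amidase, stood at 1311 and 1356 CPM, and Irf8 at 1761 and 1862 CPM. These levels follow from the rule and support nothing by themselves.

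Both markers that the rule did not use were also present. Tlr3 (chromosome 8, 45395665 to 45411080, - strand) stood at 207 CPM (182 to 234) in WT cDC1 and 207 CPM (192 to 223) in KO cDC1. The same gene stood at 3.66 and 6.61 CPM in cDC2 and at 0 and 1.27 CPM in mature dendritic cells. Itgae, which encodes the integrin CD103 (chromosome 11, 73090583 to 73147446, + strand), stood at 150 CPM (129 to 174) in WT and 215 CPM (200 to 231) in KO cDC1. Itgae stood at 0.91 and 4.07 CPM in cDC2, so both markers were high in cDC1 of both libraries and low in the nearest cell types. The factor Batf3 stood at 208 and 207 CPM in WT and KO cDC1, against 41.1 and 38.6 CPM in cDC2. Mature dendritic cells held Batf3 at 198 and 142 CPM, so it did not set cDC1 apart from them.

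**Figure D1:**
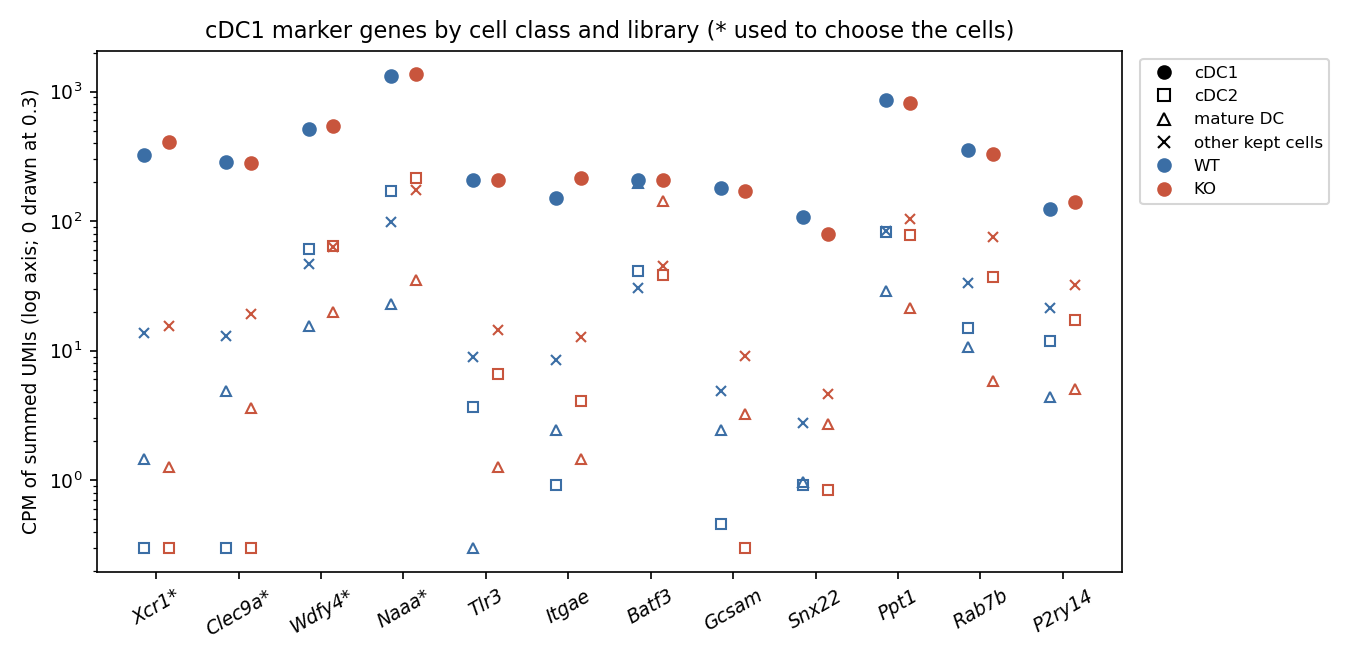
CPM (log axis) of 12 genes in cDC1 (filled circles), cDC2 (squares), mature dendritic cells (triangles) and all other kept cells (crosses) of the WT and KO libraries. A star marks genes used to choose the cells. Tlr3 and Itgae, which were not used, stand at 150 CPM or more in cDC1 and at 6.61 CPM or less in both other dendritic cell classes.

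Shares of cells with a UMI depend on depth and on free RNA, so they are given beside those of B cells. These should lack Tlr3, Itgae, Clec9a and Xcr1, but whether they make the other genes compared below was not tested. B cells were not cleared of cells with myeloid RNA. Macrophage markers summed to 1078 and 963 CPM in WT and KO B cells, against 164 and 225 CPM in cDC1. A share in B cells is thus no measure of free RNA alone. The median depth was 13972.5 UMIs in WT and 16833.5 in KO cDC1, against 3086 and 3366 in B cells. Tlr3 was seen in 66 of 98 WT cDC1 (67.3%, 57.1 to 76.5) and in 156 of 218 KO cDC1 (71.6%, 65.1 to 77.4). With every cell thinned to 2000 UMIs, which left 91 and 213 cDC1, the shares were 33.0% and 29.6%, against 0.287% and 0.567% of B cells. Thinned Itgae shares were 25.3% (16.7 to 35.5) in WT and 28.6% (22.7 to 35.2) in KO cDC1, against 0.287% and 0.283% of B cells. Thinned Clec9a shares were 42.9% and 44.6%, and thinned Xcr1 shares 41.8% and 42.7%, for genes the rule used. Cd8a, carried by cDC1 of lymphoid organs, was seen in 2.2% and 0.939% of thinned cDC1. The shares of thinned B cells were close to these, at 2.48% and 0.850%.

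Cells on either side of the lower limit of the rule compared differently in the 2 libraries. The summed Xcr1+Clec9a UMIs per member ran from 2 through a median of 5 to 30 in the WT library, and from 2 through 6.5 to 63 in the KO library. The cells just inside, with exactly 2, numbered 20 and 32, and held Tlr3 at 180 and 79.4 CPM and Itgae at 159 and 66.2 CPM. The cells just outside, with exactly 1 and passing every other condition, numbered 25 and 47, and held Tlr3 at 68.4 and 59.4 CPM and Itgae at 34.2 and 30.8 CPM. Over all members Tlr3 stood at 207 and 207 CPM and Itgae at 150 and 215 CPM. In WT the cells just inside thus lay near all members, and in KO they lay nearer the cells just outside. The median depth was 3470 and 5630 UMIs just inside, against 7912 and 10986 just outside. Of the cells that passed both positive conditions (243 in WT, 422 in KO), the exclusion of any lymphocyte UMI removed 72 (29.6%) in WT and 53 (12.6%) in KO, and 32 and 37 of these held exactly 1 such UMI. The limit on division genes removed 51 (21.0%) and 72 (17.1%), so cycling cDC1 are largely outside the cells described.

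In both libraries the members fell into a deep and a shallow part. Of WT cDC1, 34 of 98 (34.7%) held under 8000 UMIs, a limit set after the totals were seen, and of KO cDC1, 56 of 218 (25.7%). The shallow cells had a median of 7.08% mitochondrial UMIs in WT and 8.18% in KO, against 1.21% and 1.51% in the deep cells. The nuclear RNA Malat1 stood at 115159 and 127332 CPM in the shallow cells, against 27931 and 27049 CPM in the deep ones. Cst3, which encodes cystatin C and is abundant in cDC1, stood at 14078 and 13343 CPM against 27112 and 27846 CPM. The rule asks the same number of Xcr1+Clec9a UMIs at any depth. Clec9a stood at 643 and 638 CPM in the shallow cells against 244 and 255 CPM, and Irf8 stood at 2125 and 1942 against 1719 and 1856 CPM. Xcr1 was higher in the shallow cells only in WT, at 412 against 312 CPM, and stood at 375 against 408 CPM in KO. The shallow cells held 10.3% of the members' UMIs in WT and 6.55% in KO, so sums over cells rest mainly on the deep ones.

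**Figure D2:**
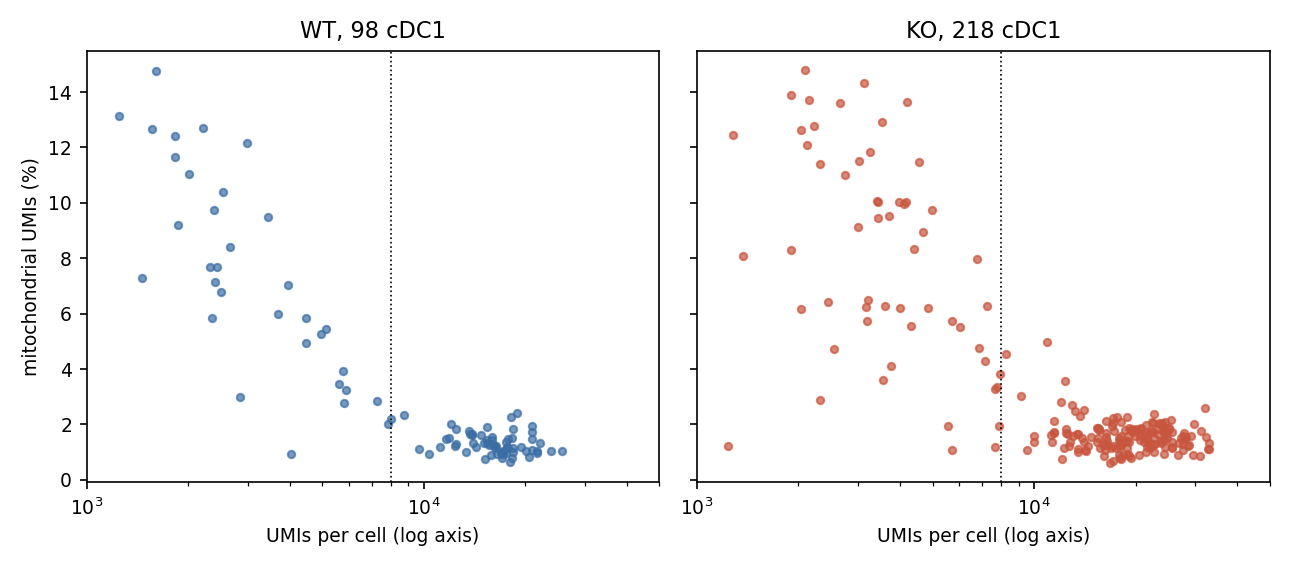
Each point is 1 cDC1, with its UMIs (log axis) and its share of mitochondrial UMIs, in the WT library (98 cells) and the KO library (218 cells). The dotted line at 8000 UMIs separates a deep part with low mitochondrial shares from a shallow part, with 34 WT and 56 KO cells, in which the share rises to 15%.

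cDC1 were a larger share of the KO library. They made up 1.10% (0.891 to 1.33) of kept WT cells and 3.83% (3.35 to 4.36) of kept KO cells, a log2 ratio of 1.81 (1.45 to 2.16). The other dendritic cell classes differed likewise. cDC2, chosen by at least 2 Cd209a UMIs, made up 2.23% and 7.81%, a log2 ratio of 1.81. Mature dendritic cells, chosen by at least 5 UMIs of Fscn1+Ccr7+Ccl22, made up 3.09% and 9.18%, a log2 ratio of 1.57. Among the cells of these 3 classes cDC1 were 17.1% (14.1 to 20.4) in WT and 18.4% (16.2 to 20.7) in KO, and these intervals overlap.

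The share moved with depth and with the lymphocytes of the library. Kept cells had a median of 4398.5 UMIs in WT and 8026 in KO. B cells were 13.9% and 6.56% of kept cells, and CD8 T cells 22.4% and 8.79%. Among kept cells with no Cd79a UMI the log2 ratio of the cDC1 share was 1.52. Among kept cells with 8000 or more UMIs, cDC1 were 64 of 2151 and 162 of 2847, and the log2 ratio was 0.94 (0.51 to 1.38). Without the exclusion of lymphocyte UMIs it was 1.58, from 132 and 251 cells. All these values keep the KO share above the WT share. The part of depth and of the other cell types in this difference was not tested.

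Compared with cDC2 and mature dendritic cells of the same library, cDC1 held 339 of 4792 genes (7.07%) at least 1.5-fold above both in both libraries and 438 (9.14%) below both. This describes the cells, since they were chosen by genes of the same counts. The 15 genes that stood out most included Itgae, Gcsam, Gpr141b, Tlr3, Cxcr3, Snx22, Rtl8a, Ppt1, Rab7b, P2ry14, Plet1, Clec1b, Rtl8b and Slc8b1. Gcsam, a signalling adaptor first known from germinal centre B cells (chromosome 16, 45610380 to 45622867, + strand), stood at 180 and 170 CPM, against 0.46 and 0 CPM in cDC2 and 2.43 and 3.26 CPM in mature dendritic cells. Snx22, a sorting nexin, stood at 108 and 79.6 CPM against 0.91 and 0.85 CPM in cDC2. Gpr141b, an orphan receptor of the G protein-coupled kind, stood at 63.5 and 93.9 CPM and was at 0 in cDC2 of both libraries. These 3 genes were thus almost limited to cDC1 among the 3 dendritic cell classes.

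Others of the 15 were shared at a lower level. Ppt1, a lysosomal thioesterase, stood at 863 and 817 CPM in cDC1, against 82.3 and 78.1 CPM in cDC2 and 28.7 and 21.5 CPM in mature dendritic cells. Rab7b, a small GTPase of late endosomes, stood at 354 and 329 CPM, against 15.1 and 37.3 CPM in cDC2. P2ry14, a receptor for UDP-sugars, stood at 125 and 141 CPM, against 11.9 and 17.1 CPM in cDC2. Cxcr3, the receptor for CXCL9 and CXCL10, stood at 73.7 and 54.4 CPM in cDC1 and 1.83 and 0.85 CPM in cDC2, but at 91.5 and 29.9 CPM over all other kept cells, so it marked cDC1 only among the dendritic cells. Rtl8a and Rtl8b are near-identical genes between which reads can be split, and their separate levels are uncertain.

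A list of cDC1 identity genes outside the rule had 36 matched members, of which 27 could be compared with the other dendritic cells. Of these, 17 lay at least 1.5-fold above both classes in both libraries and 1 lay below both, against 7.07% and 9.14% of all genes. The growth factor receptor Kit was among the 17, at 99.1 and 124 CPM in cDC1 against 60.8 and 65.3 CPM in mature dendritic cells. The receptor Flt3, the lectin Ly75 (DEC-205) and the factors Id2 and Zbtb46 were not among them. Flt3 stood at 167 and 164 CPM in cDC1 and at 137 and 162 CPM in mature dendritic cells, and Ly75 at 32.2 and 45.1 CPM against 180 and 215 CPM. Of 30 maturation genes, 17 lay below both cDC2 and mature dendritic cells and 0 above both, against 9.14% and 7.07% of all genes. The median maturation gene was at a log2 of -4.51 against mature dendritic cells in WT and -4.82 in KO. Ccr7, Fscn1 and Ccl22 were kept low by the rule itself, and mature dendritic cells were chosen by the same genes. The comparison of maturation genes with mature dendritic cells therefore describes the choice of cells as well.

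Most transcripts of cDC1 stood at the same level in both libraries. Of 3834 genes with a mean of at least 30 CPM over both, 3686 (96.1%) differed by less than 1.5-fold, the fold used here to call a difference. The KO library was at least 1.5-fold higher for 106 genes (2.76%) and at least 1.5-fold lower for 42 genes (1.10%). The median log2 ratio of KO over WT was -0.003, and the middle 90% of genes ran from -0.39 to 0.48. With the mean taken over cells instead of over summed UMIs, the numbers were 129 higher and 268 lower, so that the larger direction turned. Counts of UMIs are not replicated here, and these numbers compare 2 libraries, not 2 genotypes.

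**Figure D3:**
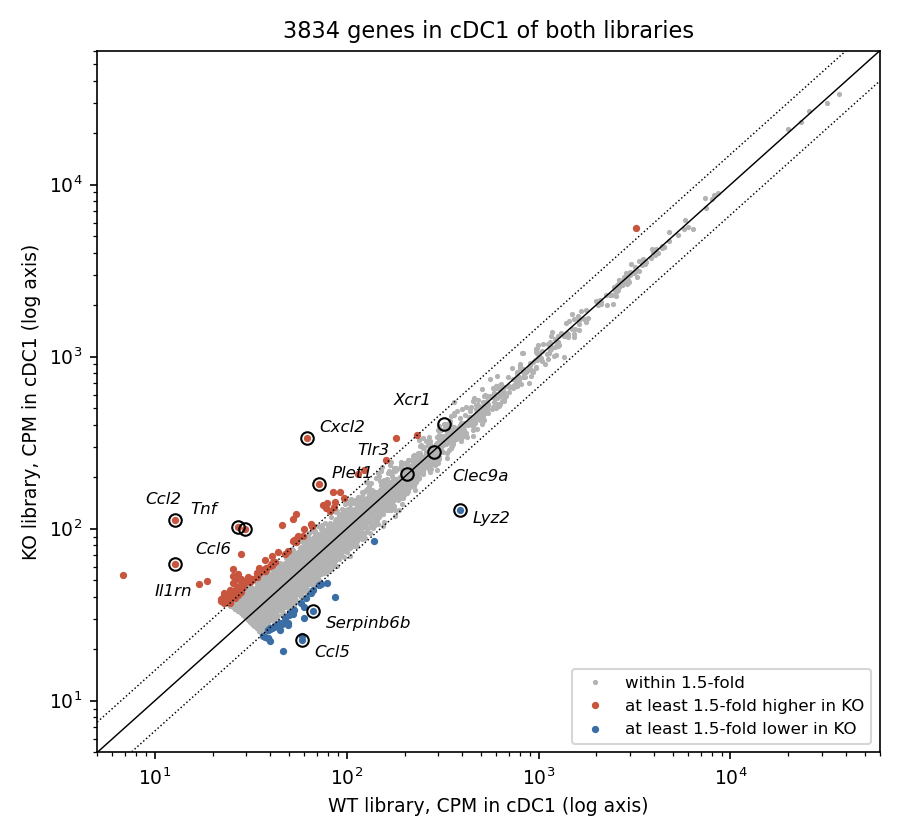
CPM of the 3834 genes in cDC1 of the WT library (x, log axis) and the KO library (y, log axis). The solid line is equality, dotted lines are 1.5-fold, and 106 genes lie above and 42 below them. Ringed genes are named, with Ccl2 at 12.7 and 112 CPM and Lyz2 at 388 and 128 CPM.

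Kcnj2 itself was hardly seen. It gave 1 UMI in WT cDC1 and 1 UMI in KO cDC1, 0.85 CPM (0.021 to 4.72) and 0.29 CPM (0.0074 to 1.63). Neither library therefore shows its level in these cells, and a difference was not detectable at this depth. Of 21 potassium channel and related genes, 1 passed the level minimum, Kctd12, a receptor partner without a pore of its own, at 312 and 374 CPM (log2 0.26).

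Lyz2, the gene whose promoter drives Cre here (chromosome 10, 117277331 to 117282321, - strand), was the gene lowest in the KO library among those at 50 CPM or more. It stood at 388 CPM (353 to 425) in WT and 128 CPM (116 to 140) in KO cDC1, a log2 ratio of -1.60 (-1.80 to -1.41). It was lower in the KO library in every class examined, from 1333 to 528 CPM in cDC2, 371 to 134 CPM in mature dendritic cells and 967 to 211 CPM in B cells. Lyz2 was seen in 44.0% of thinned WT and 10.8% of thinned KO cDC1, against 15.4% and 4.53% of B cells, so its share in B cells also differed between the libraries. Of 10 monocyte markers, 7 were detected in WT and 10 in KO cDC1, with a summed level of 1466 and 1259 CPM. That sum includes Lyz2 itself and Plac8, which some dendritic cells also hold. The median log2 ratio of the 5 markers past the level minimum was 0.01. Vcan, Chil3 and Hp were at 0 in WT cDC1. The Cre allele and the genotype cannot be told apart. The part of other cells' RNA, free or in the same droplet, in the Lyz2 difference was not tested.

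Among lists with 5 or more genes past the level minimum, chemokines had the largest median ratio. Of 18 chemokine genes 10 passed that minimum, 5 of them at least 1.5-fold higher and 1 lower in KO cDC1 (over all genes 2.76% were higher and 1.10% lower), with a median log2 ratio of 0.63 against -0.003 over all genes. Ccl2, which attracts monocytes, stood at 12.7 CPM (7.11 to 21.0) in WT and 112 CPM (101 to 124) in KO cDC1, a log2 ratio of 3.14. Cxcl2, which attracts neutrophils (chromosome 5, 90903871 to 90905938, + strand), stood at 61.8 CPM (48.5 to 77.7) and 336 CPM (317 to 356), a log2 ratio of 2.44. Ccl7, another monocyte attractant, stood at 6.78 and 53.5 CPM, and Ccl6 at 29.6 and 99.5 CPM. Ccl3, a ligand of CCR1, stood at 114 and 207 CPM, a log2 ratio of 0.85.

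A few cells held most of the Cxcl2, Ccl2 and Ccl7 UMIs of KO cDC1. The 5 KO cDC1 with the most UMIs of Cxcl2, Ccl2, Tnf, Ccl6, Ptgs2 and Ccl7 together held 916 of the library's 1148 Cxcl2 UMIs, 246 of 382 Ccl2 UMIs and 167 of 183 Ccl7 UMIs. Without the 5 such cells of each library, Cxcl2 stood at 31.7 and 70.0 CPM, and Ccl2 at 13.6 and 41.1 CPM. Ccl7 then stood at 5.43 and 4.83 CPM. A smaller part of the Ccl6 UMIs lay in these cells, 145 of 340 in KO, and Ccl6 stood at 14.5 and 58.9 CPM without them. Ccl6 was still uneven, since the 5 cells highest for Ccl6 itself held 71.4% of its WT and 68.2% of its KO UMIs. The cells left out were chosen by these same genes, they are a larger part of the 98 WT than of the 218 KO cells, and the 5 WT cells held 0 Ccl2 UMIs, so the values without them describe the unevenness and are no even-handed comparison of the libraries. The 5 KO cells had 12039 to 25164 UMIs each, within the range of the other members.

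The same genes were abundant in cells around cDC1. Over all other kept cells Cxcl2 stood at 2263 and 3663 CPM and Ccl2 at 364 and 581 CPM. In thinned cells Cxcl2 was seen in 9.89% of WT and 17.4% of KO cDC1, against 16.3% and 14.4% of B cells. The WT share thus lay below that of B cells. The KO intervals, 12.5 to 23.1% of cDC1 and 11.0 to 18.6% of B cells, overlap. Thinned Ccl2 shares were 3.30% and 6.57%, against 6.11% and 4.25% of B cells. Ccl6 was seen in 2 of 91 WT and 18 of 213 KO thinned cDC1 (8.45% in KO), against 6.78% and 6.52% of B cells, and Ccl3 in 11.0% and 16.4%, against 9.07% and 9.07%. Of 12 macrophage markers 11 were detected in WT cDC1 (Ms4a7 at 0) and 12 in KO, with a summed level of 164 and 225 CPM, and of 8 neutrophil markers 4 and 6, with 13.6 and 25.2 CPM. The cDC2 markers, of which 2 of 10 were at 0 in WT (Cd209d and Clec4a4) and 1 in KO (Clec4a4), had a summed level of 103 CPM in WT and 168 CPM in KO cDC1 (log2 0.70, 0.42 to 0.99), against 3023 and 3499 CPM in cDC2. Mgl2, a lectin of cDC2, was the 1 of their 2 genes past the level minimum that was past the fold, at 16.9 and 47.4 CPM. In cDC2 of the WT and KO libraries Cxcl2 stood at 338 and 712 CPM and Ccl6 at 160 and 334 CPM, and Ccl3, Ccl4 and Ptgs2 were likewise higher in cDC2 than in cDC1 of both libraries. The part of other cells' RNA, and of cDC2 among the members, in these differences was not tested.

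**Figure D4:**
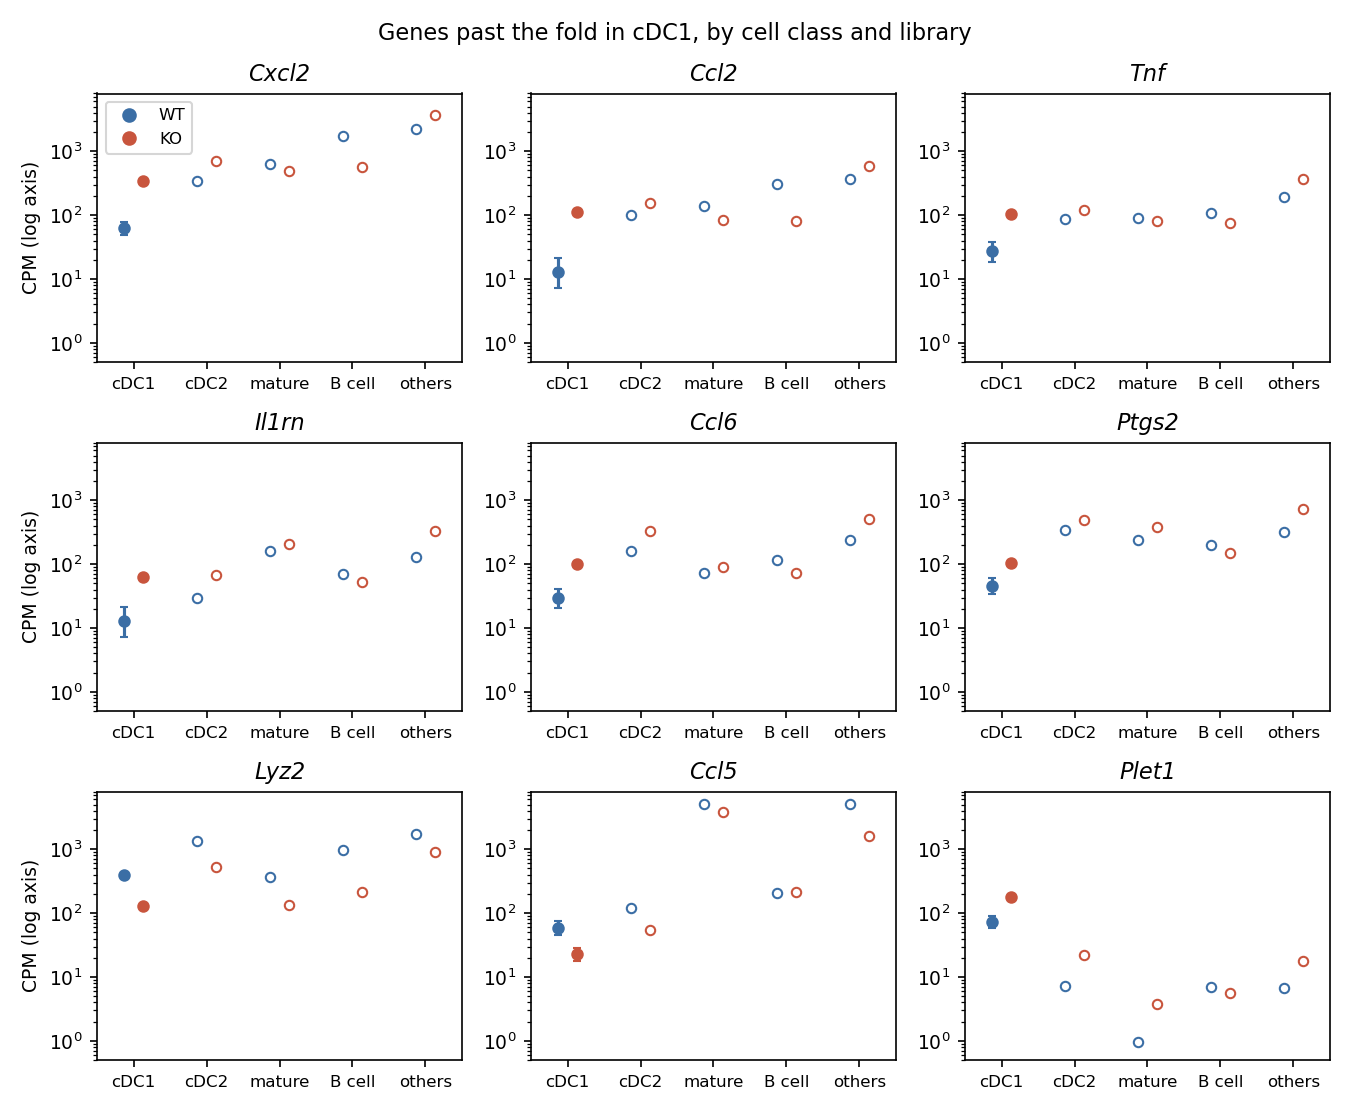
CPM (log axis) of 9 genes past 1.5-fold in cDC1, for cDC1 (filled, with 95% counting intervals), cDC2, mature dendritic cells, B cells and all other kept cells (open) of the WT and KO libraries. Cxcl2 and Ccl2 are lower in KO B cells than in WT B cells and higher in KO cDC1. Lyz2 is lower in every KO class.

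Other chemokines at 100 CPM or more in both libraries stayed within the fold. Cxcl9, which draws CXCR3-bearing T cells, stood at 539 CPM (498 to 582) in WT and 489 CPM (465 to 513) in KO cDC1, a log2 ratio of -0.14. It was seen in 29.7% of WT and 24.9% of KO thinned cDC1, against 2.10% and 3.12% of B cells. Ccl4, a chemokine that attracts T cells and macrophages, stood at 558 and 742 CPM and was seen in 27.5% and 34.7% of thinned cDC1, against 19.1% and 16.7% of B cells. Cxcl16, the ligand of CXCR6, stood at 112 and 122 CPM.

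Ccl5, a T cell attractant, was the chemokine lower in KO cDC1, at 58.4 CPM (45.5 to 74.0) in WT and 22.5 CPM (17.8 to 28.2) in KO, a log2 ratio of -1.38. Other kept cells held 5155 and 1622 CPM of Ccl5. Its thinned shares of 8.79% and 8.45% of cDC1 lay below the 27.1% of B cells in WT and near their 7.08% in KO. B cells held 205 and 213 CPM of Ccl5. In the other dendritic cells Ccl5 was also lower in KO. It stood at 119 and 54.2 CPM in cDC2 (log2 -1.13) and at 5059 and 3756 CPM in mature dendritic cells (log2 -0.43). Of 12 T cell markers 10 were detected in WT cDC1 (Cd28 and Cd4 at 0) and 11 in KO (Bcl11b at 0), with a summed level of 57.6 and 12.9 CPM, and the rule removed every cell with a UMI of Cd3d or Cd3e. The part of T cell RNA in the Ccl5 difference was not tested.

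Cytokines were mostly low. Of 21 genes 6 passed the level minimum and 2 of these were at least 1.5-fold higher in KO cDC1, with 0 lower, against 2.76% and 1.10% of all genes. Tnf stood at 27.1 CPM (18.5 to 38.3) in WT and 102 CPM (91.9 to 114) in KO cDC1, a log2 ratio of 1.92. It was seen in 7.69% of WT and 10.8% of KO thinned cDC1, against 7.07% and 7.37% of B cells. The WT share lay near that of B cells, and the KO intervals (6.97 to 15.8% and 4.87 to 10.6%) overlap. The 5 KO cells described above held 194 of the 350 Tnf UMIs of KO cDC1. Without the 5 cells of each library Tnf stood at 24.4 and 47.1 CPM. Il1rn, the interleukin 1 receptor antagonist, stood at 12.7 and 62.0 CPM, a log2 ratio of 2.29, with 82.5% of its KO UMIs in the 5 cells highest for it. It was also higher in KO cDC2 (log2 1.17) and KO mature dendritic cells (log2 0.36). Il1b, the most abundant cytokine in both libraries, stood at 823 and 1048 CPM (log2 0.35) and was seen in 40.7% and 42.3% of thinned cDC1, against 22.3% and 21.2% of B cells. Il12b, which encodes a subunit of interleukin 12, was seen in 1 of 98 WT and 4 of 218 KO cDC1, too few to compare.

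Genes of antigen presentation stayed within 1.5-fold. Of 25 cross-presentation and endosome genes, 13 MHC class I genes and 10 MHC class II genes, 0 were past the fold in either direction. Over all genes 2.76% were higher and 1.10% lower. The median log2 ratios of these lists were 0.02, 0.06 and 0.05. Tap1, which carries peptides into the endoplasmic reticulum, stood at 353 and 369 CPM. H2-K1, a class I heavy chain, stood at 897 and 924 CPM, and its partner B2m at 1315 and 1374 CPM. Cd74, the class II invariant chain, stood at 23397 and 23167 CPM, and Ciita, the master regulator of class II, at 360 and 381 CPM. Lnpep (IRAP), an endosomal peptidase that trims cross-presented peptides, had the highest ratio of these lists, from 57.6 to 84.8 CPM (log2 0.56, 0.17 to 0.96). Cybb, a subunit of the phagosomal NADPH oxidase, had the lowest, from 37.3 to 27.5 CPM (log2 -0.44, -0.97 to 0.11).

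Receptors and ligands of the T cell contact were likewise near equality. Of 12 co-stimulatory and inhibitory ligands past the level minimum, 1 was higher and 0 were lower, against 2.76% and 1.10% of all genes. Cd274, which encodes the inhibitory ligand PD-L1, stood at 33.9 CPM (24.2 to 46.1) in WT and 55.0 CPM (47.4 to 63.4) in KO cDC1, a log2 ratio of 0.70. Its thinned shares of 5.49% and 10.3% of cDC1 lay below the 14.8% and 12.5% of B cells. The KO intervals, 6.59 to 15.2% of cDC1 and 9.20 to 16.4% of B cells, overlap. Cd86 stood at 175 and 157 CPM, Cd83 at 251 and 294 CPM and Cd47, the ligand of SIRPα, at 345 and 424 CPM. Havcr2, which encodes TIM-3, a regulator of cDC1 in tumours, stood at 168 and 128 CPM (log2 -0.39, -0.64 to -0.14), below the fold. Among 8 pattern recognition genes and 9 chemokine receptor and migration genes past the level minimum, 0 were past the fold, beside the same shares over all genes. Ccr2, Myd88 and Unc93b1 were among these genes.

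Interferon-stimulated genes did not move together. Of 37 type I interferon-stimulated genes 13 passed the level minimum, 1 of them higher and 1 lower (over all genes 2.76% and 1.10%), with a median log2 ratio of -0.01. Slfn5 stood at 232 and 350 CPM (log2 0.59, 0.40 to 0.79) and Phf11d at 53.4 and 33.6 CPM (log2 -0.67, -1.12 to -0.20), while Isg15 stood at 111 and 98.0 CPM. Of 12 interferon-gamma-induced genes, 2 were higher, Cd274 and the GTPase Ifi47 (37.3 and 57.9 CPM), and 0 were lower, beside the same shares over all genes. Their median log2 ratio was 0.01. The transcription factor Irf1 stood at 140 and 109 CPM.

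Transcription factors and immediate early genes had medians above equality in the KO library. Of 22 dendritic cell transcription factors 2 were higher and 0 lower (over all genes 2.76% and 1.10%), with a median log2 ratio of 0.28. Bcl6, a repressor active in cDC1, stood at 52.5 CPM (40.3 to 67.3) in WT and 85.1 CPM (75.6 to 95.5) in KO, and Nr4a3 at 44.0 and 72.8 CPM. Spi1 (PU.1) stood at 310 and 291 CPM and Id2 at 1546 and 1454 CPM. Of 20 immediate early genes 3 were higher and 0 lower, beside the same shares over all genes, with a median of 0.29. Egr1 stood at 92.3 and 163 CPM (log2 0.82), Nr4a2 at 96.6 and 151 CPM (log2 0.64), and Fos at 1351 and 994 CPM (log2 -0.44), which went the other way. Egr1 was also higher in KO B cells, at 181 and 289 CPM, and over other kept cells, at 173 and 455 CPM.

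Other genes higher in KO cDC1 had no common list. Plet1, which encodes a membrane protein of epithelial and some dendritic cells (chromosome 9, 50494525 to 50505482, + strand), was both a gene that set cDC1 apart and one that differed. It stood at 72.0 CPM (57.5 to 89.0) in WT and 181 CPM (167 to 196) in KO cDC1, a log2 ratio of 1.33. Of B cells, 0.889% and 1.07% held a Plet1 UMI. The shares were far higher in cDC1, with 18 of 98 WT cells (18.4%) and 65 of 218 KO cells (29.8%). The thinned shares were 6.59% (2.46 to 13.8) and 13.6% (9.31 to 19.0), and these intervals overlap. Plet1 was also higher in KO cDC2, from 7.31 to 22.03 CPM, and in other kept cells, from 6.77 to 18.1 CPM.

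Ptgs2 (cyclooxygenase 2) stood at 45.7 and 105 CPM, a log2 ratio of 1.20, and at 12.7 and 54.6 CPM without the 5 cells of each library chosen above. It was seen in 8.79% of WT and 8.92% of KO thinned cDC1, against 6.02% and 4.82% of B cells, so the share of cells with a UMI was nearly the same in both libraries. Cited2, a transcriptional co-regulator, stood at 52.5 and 114 CPM (log2 1.12) in 40 WT and 111 KO cells, and Etv3, an ETS-family repressor, at 84.7 and 164 CPM (log2 0.95). Both were also higher in other KO dendritic cells. The log2 ratios in cDC2 and mature dendritic cells were 0.28 and 0.93 for Cited2, and 0.69 and 0.22 for Etv3. Ccnd2, which encodes the G1 cyclin D2, stood at 123 and 220 CPM (log2 0.84). It was the 1 of 15 proliferation genes outside the rule that was past the fold (over all genes 2.76% were higher and 1.10% lower). Ccnd2 was also higher in KO cDC2 (log2 0.56) and KO mature dendritic cells (log2 0.62). Lilr4b (log2 1.17) and Bcl2a1a (log2 0.87) have near-identical neighbours between which reads can be split, so their values are uncertain.

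Besides Lyz2, 6 of the 12 lowest genes were past the fold. Mef2c, a transcription factor of myeloid and B cells, stood at 139 CPM (118 to 162) in WT and 84.5 CPM (75.1 to 94.9) in KO cDC1, a log2 ratio of -0.72. Hist1h1e, a linker histone, stood at 78.8 and 48.3 CPM (log2 -0.71). It was lower still in KO cDC2 (log2 -1.25) and KO mature dendritic cells (log2 -1.10). Tifa, Haao, Map3k8 and Cks1b had log2 ratios of -0.63 to -0.60. Haao was also lower in KO cDC2 (log2 -0.76) and KO mature dendritic cells (log2 -0.56). Rif1, Cacybp, Phf5a, Ptpn2 and Cysltr1 had ratios of -0.58 to -0.56, just within the fold. Serpinb6b, a serine protease inhibitor of the maturation list, stood at 66.9 CPM (53.0 to 83.4) in WT and 33.1 CPM (27.2 to 39.7) in KO (log2 -1.02), with 62.0% of its WT UMIs in the 5 cells highest for it. Of 13 maturation genes past the level minimum 1 was higher (Cd274) and 2 were lower (Ccl5 and Serpinb6b), against 2.76% and 1.10% of all genes.

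Of the 32 named genes past the fold, 12 had ratios past it under all 14 alternatives of the rule, the scaling, the level minimum and the fold: Ccl2, Cxcl2, Tnf, Il1rn, Ccl6, Plet1, Ptgs2, Lilr4b, Cited2, Lyz2, Ccl5 and Serpinb6b. Another level minimum leaves the ratio of a gene as it was, so those alternatives could not move a named gene. At a minimum of 100 CPM, genes such as Ccl2 (mean 62.2 CPM) and Ccl5 (mean 40.5 CPM) were not compared at all. Ccl3 had log2 ratios of 0.18 to 1.38, the lowest with at least 4 UMIs of Xcr1+Clec9a, and Ccl7 of -0.49 to 3.16. Mef2c ranged from -1.03 to -0.16, Hist1h1e from -1.27 to -0.30 and Egr1 from 0.47 to 0.98. Cd274 and Bcl6 were under the fold with the mean over cells and with the rule applied to thinned barcodes, and Bcl6 also without the 10% of members with the most UMIs, at 0.54. Haao and Tifa turned to 0.20 and 0.066 with the rule applied to thinned barcodes.

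Metabolic and stress lists held 0 genes past the fold among 12 of glycolysis, 31 of oxidative phosphorylation, 11 heat shock genes and 17 growth factor and survival receptors. Over all genes 2.76% were higher and 1.10% lower. The median log2 ratios of these lists were 0.13, -0.11, -0.04 and 0.11. Hspa1a, induced by stress, stood at 768 and 764 CPM. The receptor genes Flt3 and Kit, for the growth factors of dendritic cells and their precursors, stood at 167 and 164 CPM and at 99.1 and 124 CPM. Of the mitochondrially encoded genes, mt-Nd3 stood at 180 and 336 CPM (log2 0.90), and it was also higher in KO B cells, at 168 and 421 CPM.

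**Figure D5:**
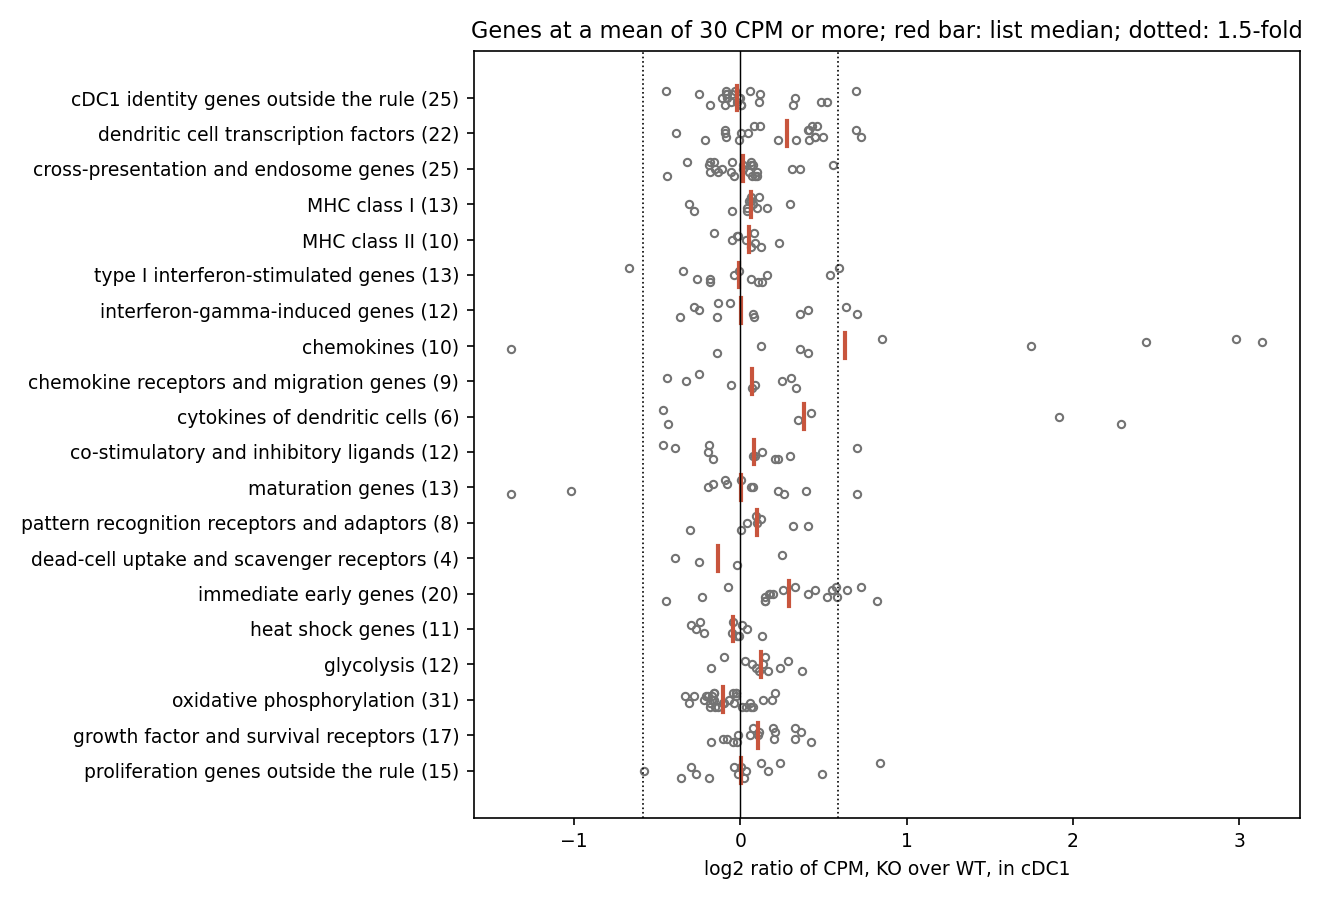
Log2 ratio of CPM, KO over WT, in cDC1, for each gene with a mean of at least 30 CPM (points) of 20 lists with 4 or more such genes, their number in brackets. Red bars are list medians and dotted lines 1.5-fold. Chemokines reach from -1.38 to 3.14, while antigen presentation and oxidative phosphorylation genes lie between the lines.

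Within each library the cells differed most in a few genes. Over cells thinned to 2000 UMIs, Malat1 had the largest variance-to-mean ratio (147 in WT and 156 in KO), and Cst3, Tmsb4x, Cd74 and Actb were also among the 12 highest, which are genes whose level differed between the deep and shallow cells. Ifitm1, an interferon-induced membrane protein, was seen in 27.5% of WT and 23.5% of KO thinned cDC1, with up to 30 and 18 UMIs in 1 cell and a variance-to-mean ratio of at least 8.93. Its share in B cells was 9.93% and 12.2%. Clec7a (Dectin-1), a receptor for fungal glucans better known from cDC2, was seen in 6.59% and 8.92% of thinned cDC1, and 5 cells held 92.0% of its WT and 62.8% of its KO UMIs. Cxcl9 (ratio at least 4.82), Ccl4 (6.41) and Il1b (5.90) were the chemokines and cytokines among the 12, and their transcripts were unevenly spread over cDC1 of both libraries.

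Summed over lists, the 91 WT and 213 KO cDC1 with at least 2000 UMIs had medians that were closer for some lists than for others. The identity genes outside the rule ran from 15.3 through a median of 305 to 616 UMIs per 10000 in WT cells, and from 29.9 through 313 to 654 in KO cells. Interferon-gamma-induced genes ran from 3.49 through 18.7 to 230 in WT and from 3.82 through 17.5 to 245 in KO cells, with upper quartiles of 48.0 and 33.3. Chemokines ran from 0 through 6.56 to 119 in WT and from 0 through 8.56 to 604 in KO cells, and the highest KO cell lay far above the highest WT cell. Medians in WT and KO were 42.9 and 50.1 for immediate early genes and 14.2 and 11.7 for maturation genes. They were 16.5 and 16.3 for type I interferon-stimulated genes, 48.0 and 45.3 for MHC class I and 482 and 501 for MHC class II.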

How the data were processed

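Single-cell 3′ RNA libraries (10x Chromium V3 kit) of CD45+ tumour leukocytes were analysed, 1 per genotype. The deposited matrices hold raw UMI counts per gene and barcode, with no normalization by the authors. Build GRCm38 and the tools bcl2fastq (2.20), Cell Ranger (3.1.0) and Seurat (4.0.1) are listed in the submitters' processing notes, but the matrix header gives Cell Ranger 4.0.0. No barcode held under 500 UMIs, and the filter behind this limit is not stated in the labels.

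Barcodes were kept at 200 or more genes and at most 15% mitochondrial UMIs, and cDC1 were chosen with the UMI limits given above. The choice of these cells and of all gene lists was made with earlier results of these data known. Totals were 55219440 UMIs in WT (9677 barcodes) and 57047535 in KO (6356 barcodes), of which cDC1 held 1180624 and 3418144. Both libraries shared 63 barcode sequences, held by 0 WT and 5 KO cDC1. No doublet caller was run, and an alternative left out the 10% of members with the most UMIs. cDC2 were kept cells with 2 or more Cd209a UMIs and no Xcr1 or Clec9a UMI, mature dendritic cells had 5 or more of Fscn1+Ccr7+Ccl22 and at most 1 of Xcr1+Clec9a and of Cd209a, both with the exclusions of cDC1 for the other types. B cells had 2 or more Cd79a UMIs and no Cd3d or Cd3e. CD8 T cells had 2 or more UMIs of Cd3d+Cd3e, at least 1 of Cd8a+Cd8b1 and no Cd79a.

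UMIs were summed over the members of a library and divided by their total (CPM). The log2 ratio is KO over WT, with an exact conditional interval of counting error. A gene was called at 1.5-fold among genes with a mean of 30 CPM or more, and a count of 0 was set at the floor of 3 counts. Genes named were those of the rule and markers, Kcnj2 and Lyz2, the 12 highest and 12 lowest at a mean of 50 CPM or more (without mitochondrial, ribosomal, immunoglobulin and unnamed genes), the 15 that set cDC1 apart most, the 12 most variable, up to 3 past the fold each way in a list, and abundant chemokines, cytokines and ligands. Other list members named as examples were chosen after their values were seen, and a few genes that the rule names are not reported here. For shares of cells with a UMI, cells were thinned to 2000 UMIs (seed 1). The scripts (Python 3.11.15, numpy 2.4.6, scipy 1.17.1, pandas 2.3.3) were tested on simulated data. Gene coordinates came from GENCODE M21, in which all 55450 gene identifiers were found, and upstream windows from RefSeq (GRCm38.p6). Of the list symbols, 4 were not matched (Cd58, Mb21d1, Cxx1a and Cxx1b, the last 2 being Rtl8a and Rtl8b in the files).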

Additional observations from a re-analysis of the deposited data

How the results depend on the processing

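The cDC1 share stayed higher in KO under all 7 alternatives, with log2 ratios of 0.94 (without kept cells under 8000 UMIs) to 2.01 (at least 4 UMIs of Xcr1+Clec9a). Against 106 genes higher and 42 lower, the counts were 224 and 115 with the rule applied to barcodes thinned to 2000 UMIs, 438 and 283 at a mean of 10 CPM, 17 and 2 at 100 CPM, 1664 and 1985 at 1 UMI or more in each library, and 16 and 6 at 2-fold. The last 4 settings change the genes compared or the fold. Genes lower were 77 with at least 4 UMIs of Xcr1+Clec9a, 65 without the 10% of members with the most UMIs, and 268 with the mean over cells, and the cause was not tested. List members past the fold, each gene counted once, were 19 as reported, where 2.76% of all genes were higher and 1.10% lower. They were 36 (thinned), 30 (mean over cells), 43 (10 CPM), 7 (100 CPM), 85 (1 UMI) and 8 (2-fold). Directions turned for Ccl7 (-0.49 with at least 4 UMIs of Xcr1+Clec9a, -0.20 thinned), Haao (0.20 thinned) and Tifa (0.066 thinned). Other named genes past the fold kept their direction under every alternative run. The lymphocyte limit, the 8000 UMI limit and the shared barcodes were alternatives chosen after seeing the data. No paired analysis was possible because there was 1 library per genotype. Depth limits the WT library most, whose 98 cDC1 held 1180624 UMIs.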

Other observations

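Some cDC1 transcripts outside the comparisons above were seen in both libraries. Klrk1, which encodes the receptor NKG2D of NK and CD8 T cells, stood at 302 and 252 CPM in cDC1 of the WT and KO libraries. It was not particular to cDC1, with log2 ratios over cDC2 of 0.04 in WT and -0.27 in KO. Over mature dendritic cells the ratios were 0.36 and 0.05. Of the other NK cell markers Ncr1 was kept at 0 by the rule, Eomes was at 0 in WT and Klra8 at 0 in KO cDC1. Ighm, the immunoglobulin heavy chain of B cells, stood at 188 and 128 CPM with Ms4a1 at 0.85 and 0.59 CPM. Plac8, of monocytes and some dendritic cells, stood at 656 and 662 CPM. Tlr11, a receptor for profilin-like proteins, stood at 40.7 and 50.6 CPM.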
